A study of Homo sapiens with 4 samples.

Results

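Death receptors and the proteins that first act on them were followed in KYSE410, an established line of squamous carcinoma cells from a human esophagus, by Affymetrix 3′ expression array. The genes were FAS, the TRAIL receptor genes TNFRSF10A, TNFRSF10B and TNFRSF10D, the TNF receptor gene TNFRSF1A, the TRAIL gene TNFSF10, and FADD, CASP8, CFLAR and RIPK1. All probe sets, the array's groups of short probes for a transcript, whose platform annotation gave exactly 1 gene symbol equal to one of these 10 were taken. This gave 36 of 54613 probe sets, for 9 of the 10 genes; RIPK1, the kinase of the TNF receptor complex, was not analysed here because no probe set carried its symbol in the annotation used. The study held 2 arrays of cells given 20 nM YM155 for 6 h and 2 arrays of untreated cells, all grown in RPMI with fetal bovine serum and antibiotics. YM155 is a small molecule known for lowering the expression of survivin, an apoptosis inhibitor. The treatment protocol names cisplatin, while the treatment labels, source names and title name YM155, which is followed here. The YM155 replicates carry B1 and B2 in their titles, marks that no label explains and that were not used. No vehicle, separate culture or day is named. The p-values set the difference between groups only against the spread of these arrays within a group, which may be technical.

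Death receptors are membrane proteins with a cytoplasmic death domain. On ligand binding, FAS and the TRAIL receptors recruit the adaptor FADD, which brings in the initiator caspase CASP8, and CFLAR (c-FLIP), a relative of CASP8 without protease activity, limits its activation. The TNF receptor TNFRSF1A first builds a complex around TRADD, RIPK1 and ubiquitin enzymes that signals to NF-kappaB, and can lead to caspase activation or necroptosis afterwards. TNFRSF10D, a TRAIL receptor with a truncated death domain, binds TRAIL without passing on the death signal.

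Values are log2 of the deposited intensities, in which 1 unit is a 2-fold step, and differences are YM155 minus untreated with the standard error (SE) of limma's fit over the probe sets tested. Probe sets with a mean below the 40th percentile of the array (3.32 log2), where signals were not shown to exceed background, were left out of the test. Of the 36 probe sets, 24 passed, for 8 genes; all 3 of TNFSF10 lay below it. By limma, 0 of the 24 passed an adjusted p of 0.05, and neither did any of the 32768 probe sets tested (0%), in either direction. At an unadjusted p under 0.05 there were 7 of the 24, 2 higher and 5 lower, where 11.1% of all probe sets had such a p (5.03% higher and 6.06% lower). All 7 belonged to FAS, TNFRSF10A and TNFRSF1A. Both YM155 arrays lay above both untreated arrays in 7 and below them in 8 of the 24, where 19.4% and 23.9% of all probe sets did (43.3% together). Differences were positive in 8 and negative in 16, where 47.2% and 52.8% of all probe sets were. These genes were chosen with earlier results of these data known, and probe sets of 1 gene measure the same RNA, so these counts are a description. The untreated arrays were at least 2-fold apart at 1690 probe sets and the YM155 arrays at 56, so many differences below depend on which untreated array is looked at.

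FAS and TNFRSF1A stood lower and TNFRSF10A higher in YM155 cells, each with both YM155 arrays outside the untreated range. TNFRSF10B, TNFRSF10D, FADD, CASP8 and CFLAR had groups that overlapped in their brightest probe set. Among the brightest probe sets of the 8 genes, the YM155 arrays were thus clear of the untreated ones for 3, 1 higher and 2 lower, where 44.9% of 14043 genes showed this (19.3% higher and 25.6% lower). Of the 8, 1 had a positive and 7 a negative difference, where 47.1% and 52.9% of all genes had. The median difference of the 8 was −0.28 log2, against −0.02 over all genes, and their median absolute difference was 0.43, against 0.17. The first median lay between TNFRSF10D (−0.36) and TNFRSF10B (−0.20), and the second between the sizes of TNFRSF10D and CASP8 (−0.50). All of these had overlapping groups, so the medians depend on which untreated array is looked at and show no shared shift.

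**Figure D1:**
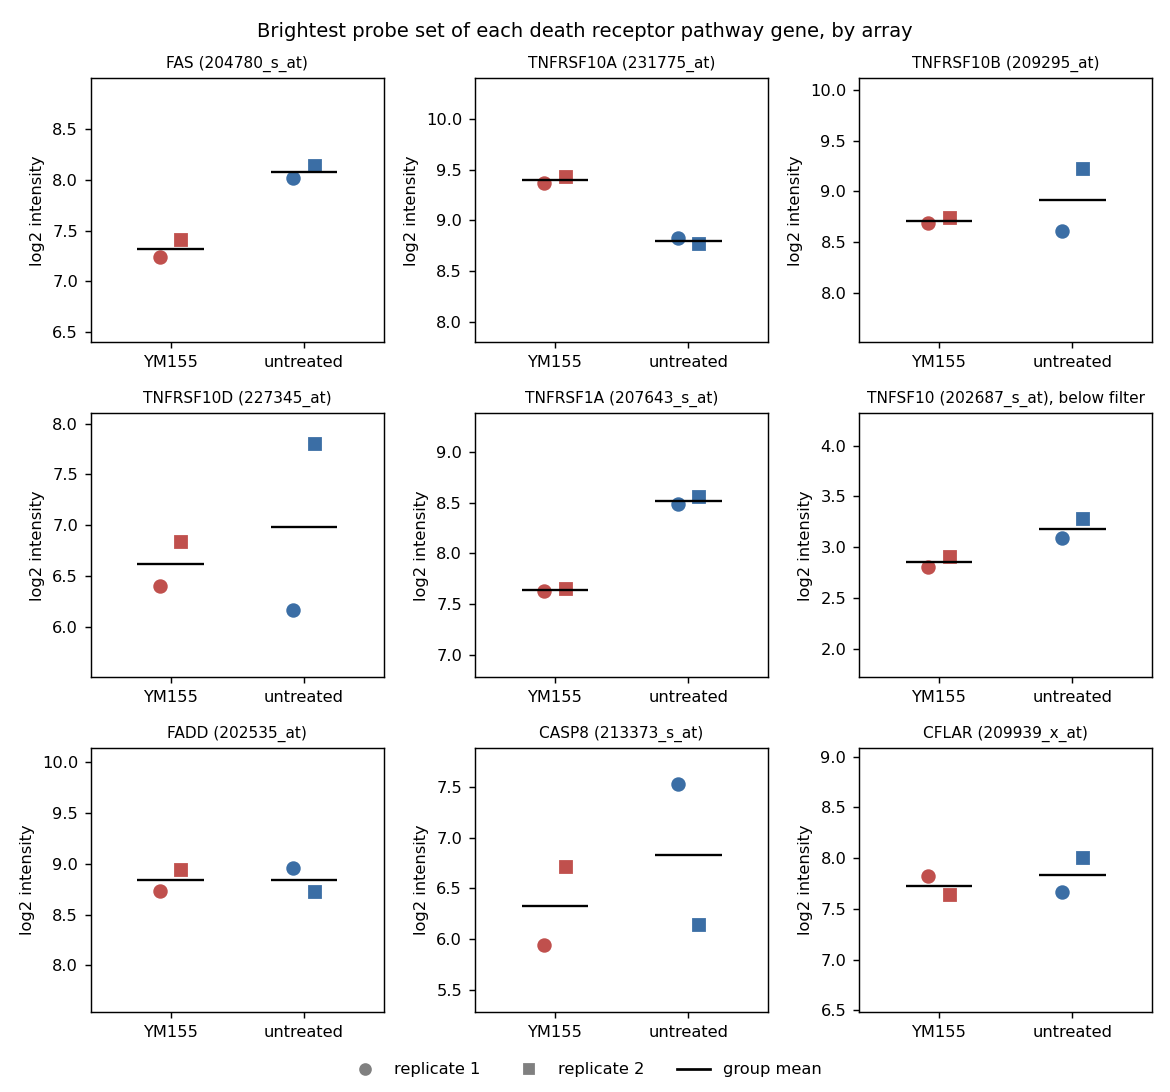
Log2 intensity (vertical axes, each spanning the same range) of the brightest probe set of 9 genes in the YM155 and untreated arrays; circles are replicate 1, squares replicate 2 and bars the group means. FAS and TNFRSF1A sit lower and TNFRSF10A higher in YM155 arrays, while the 2 untreated arrays of TNFRSF10D and CASP8 lie far apart; TNFSF10 is below the filter.

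FAS, the receptor of FAS ligand, had 5 probe sets, and in each of them both YM155 arrays lay below both untreated arrays. The brightest read 7.24 and 7.40 log2 in YM155 arrays, against 8.02 and 8.13 in untreated arrays. That is a difference of −0.76 ± 0.15 (SE; limma adjusted p = 0.289), or 0.592 of the untreated level. The next probe set read 6.17 and 6.35 in YM155 arrays and 6.96 and 7.19 in untreated arrays, which gave −0.81 ± 0.16 (limma adjusted p = 0.295). In both, the difference between groups was several times that between replicates. Of the 2 dimmer probe sets with the _x_at suffix, whose probes may also match other transcripts, one read 5.23 and 4.93 in YM155 arrays and 5.78 and 5.74 in untreated arrays (−0.68 ± 0.16). The other read 4.86 and 4.41 in YM155 arrays and 5.42 and 5.76 in untreated arrays (−0.95 ± 0.22). YM155 replicate 1 was the lower of its group in the 2 brightest FAS probe sets and the higher in these 2. The dimmest, close to the filter's limit, read 3.48 and 3.69 in YM155 arrays and 3.92 and 3.77 in untreated arrays, the smallest FAS difference (−0.26 ± 0.15). In bulk RNA, fewer cells carrying a transcript and less of it per cell cannot be told apart.

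TNFRSF1A, the main receptor of TNF in epithelial cells, was read by 1 probe set and had the lowest p of the 8 genes. It stood at 7.63 and 7.65 log2 in YM155 arrays, against 8.48 and 8.55 in untreated arrays. Replicates of each group were at most 0.07 apart. The difference was −0.88 ± 0.13 (SE; limma adjusted p = 0.245), or 0.544 of the untreated level, and with no second probe set it has no check within the array.

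TNFRSF10A, the TRAIL receptor DR4, stood higher in all 3 of its probe sets. The brightest read 9.36 and 9.43 log2 in YM155 arrays, against 8.83 and 8.77 in untreated arrays, so it stood 0.60 ± 0.13 higher (SE; limma adjusted p = 0.316), at 1.51 times the untreated level. A second read 7.98 and 7.78 in YM155 arrays and 7.37 and 7.27 in untreated arrays (0.56 ± 0.15, limma adjusted p = 0.347). The remaining one read 8.21 and 8.12 in YM155 arrays and 7.96 and 7.76 in untreated arrays (0.31 ± 0.15, limma adjusted p = 0.524). The groups did not overlap in any of the 3, though in this last one the gap between groups was smaller than the spread between the untreated arrays.

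TNFRSF10B, the other TRAIL receptor that signals death (DR5), did not follow TNFRSF10A. Its brightest probe set read 8.68 and 8.74 log2 in YM155 arrays, against 8.61 and 9.22 in untreated arrays, so that the YM155 arrays fell between the untreated ones (−0.20 ± 0.24, limma adjusted p = 0.796). Its 2 _x_at probe sets lay below both untreated arrays. One read 6.15 and 5.97 in YM155 arrays and 6.26 and 6.76 in untreated arrays (−0.45 ± 0.22), and the other 5.93 and 5.68 in YM155 arrays and 6.03 and 6.51 in untreated arrays (−0.47 ± 0.22). Untreated replicate 2 was the highest array in all 3, by 0.61, 0.50 and 0.47 over untreated replicate 1. Another TNFRSF10B probe set was below the filter (3.10 to 3.33). Whether the differences of TNFRSF10A and TNFRSF10B differ from each other was not tested.

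The decoy receptor gene TNFRSF10D had the largest SE of the 8. It read 6.40 and 6.84 log2 in YM155 arrays, against 6.16 and 7.80 in untreated arrays (−0.36 ± 0.57, limma adjusted p = 0.855). Both YM155 arrays lay inside the untreated range, and the mean of the YM155 arrays was 0.46 above untreated replicate 1 and 1.18 below untreated replicate 2. The second probe set, at the filter's limit, also overlapped (3.47 and 3.08 in YM155 arrays, 3.23 and 3.54 in untreated arrays). In RefSeq the genes TNFRSF10B, TNFRSF10C, TNFRSF10D and TNFRSF10A follow one another on chromosome 8. TNFRSF10C, a further decoy receptor gene, read 5.26 and 5.53 in YM155 arrays and 5.01 and 4.99 in untreated arrays (0.40 ± 0.16, limma adjusted p = 0.46). Its probe set carries the _x_at suffix, so its probes may also match other transcripts. In their brightest probe sets the 4 neighbours thus had 2 positive and 2 negative differences, with the 2 positive ones clear of the untreated arrays. The 2 _x_at probe sets of TNFRSF10B, as given above, lay below both untreated arrays.

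The TRAIL gene TNFSF10 gave no signal shown to exceed background in any array. Its brightest probe set read 2.80 and 2.91 log2 in YM155 arrays, against 3.09 and 3.27 in untreated arrays, and the other 2 lay between 1.57 and 2.71. No fold is given for it. FASLG and TNF, the ligands of FAS and TNFRSF1A, were likewise below the filter, at 2.57 to 2.70 and 2.94 to 3.42 over the 4 arrays.

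**Figure D2:**
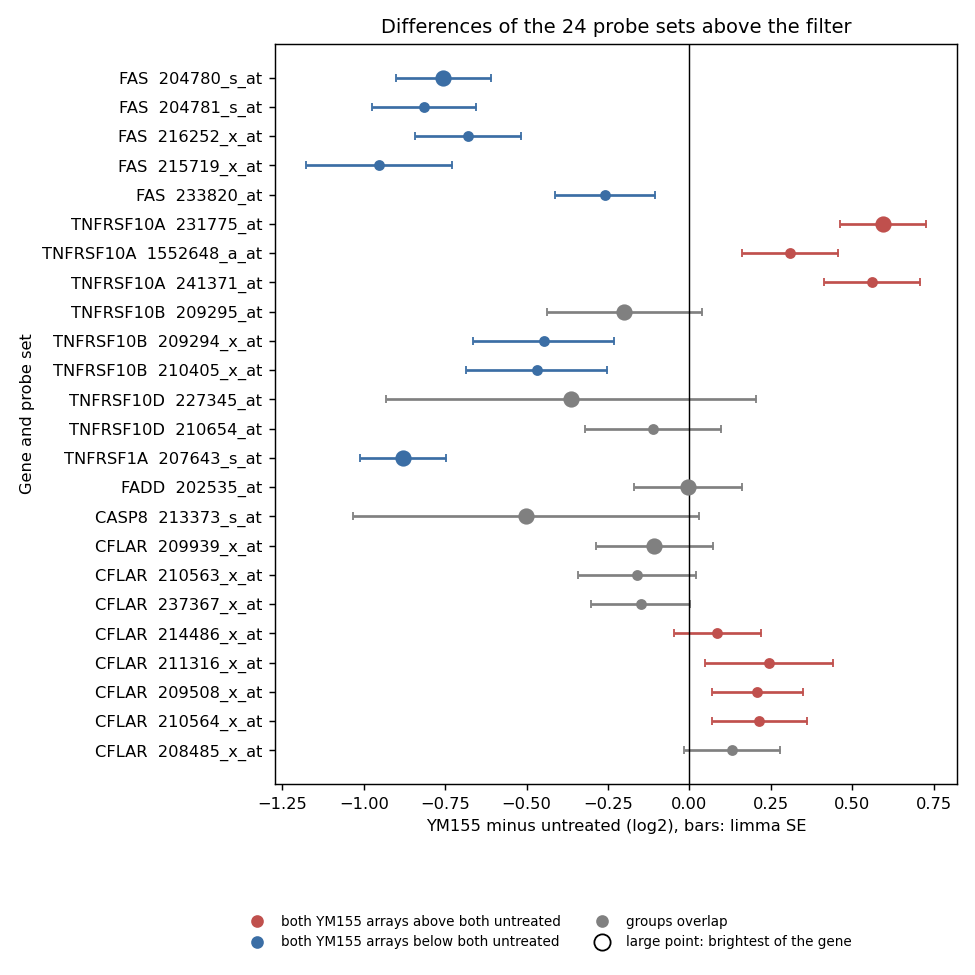
Difference between YM155 and untreated arrays (log2, points) with limma's standard error (bars) for the 24 probe sets above the filter; large points are the brightest of each gene and colours give whether the arrays of the groups overlap. The 5 FAS probe sets and TNFRSF1A lie left of 0 and the 3 of TNFRSF10A right of it, while those of CFLAR lie on both sides.

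Downstream of the receptors, FADD, the death domain adaptor, was near 0. It read 8.73 and 8.94 log2 in YM155 arrays, against 8.96 and 8.72 in untreated arrays, with a difference of −0.0041 ± 0.17 (SE; limma adjusted p = 0.998). The groups covered almost the same range.

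CASP8, the initiator caspase, differed more between replicates than between groups. Its brightest probe set read 5.95 and 6.71 log2 in YM155 arrays, against 7.52 and 6.14 in untreated arrays (−0.50 ± 0.53, limma adjusted p = 0.769). Untreated replicate 1 stood highest, and untreated replicate 2 lay between the YM155 arrays. The log2 ratio of the ACTB 3′ to 5′ control probe sets, a measure of RNA integrity and labelling, was 2.10 and 2.95 in YM155 arrays and 2.72 and 2.18 in untreated arrays. Both CASP8 and that ratio were low in YM155 replicate 1 and untreated replicate 2 and high in the other two arrays. The same ratio for GAPDH was 0.033 and 0.211 in YM155 arrays and 0.042 and 0.043 in untreated arrays, where the untreated arrays hardly differed, and its part in the CASP8 values was not tested. With the ACTB ratio as a covariate the CASP8 difference was −0.60 ± 0.32 (limma adjusted p = 0.764). The other 2 CASP8 probe sets were below the filter, where signals were not shown to exceed background. One read 3.37 and 3.14 in YM155 arrays and 3.81 and 2.88 in untreated arrays. Untreated replicate 1 was highest, as in the brightest probe set, but the YM155 arrays stood in the reverse order.

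CFLAR, the inhibitor of CASP8, had 14 probe sets, of which 8 passed the filter, and all 8 carry the _x_at suffix. The 2 bright ones overlapped. The first read 7.82 and 7.64 log2 in YM155 arrays and 7.67 and 8.0 in untreated arrays (−0.11 ± 0.18, limma adjusted p = 0.865). The second read 7.64 and 7.42 in YM155 arrays and 7.53 and 7.85 in untreated arrays (−0.16 ± 0.18). The next, at 5.45 and 5.37 in YM155 arrays and 5.44 and 5.67 in untreated arrays, overlapped as well (−0.15 ± 0.15). The 5 dimmer ones, read between 3.19 and 4.77, had differences between 0.09 and 0.24. In 4 of them both YM155 arrays lay above both untreated arrays, where 19.4% of all probe sets did. Probe sets of 1 gene measure the same RNA, so the 4 are not separate members. In 1 of them the groups almost touched, at 4.73 and 4.76 in YM155 arrays and 4.73 and 4.27 in untreated arrays. The 3 brighter CFLAR probe sets thus had negative and the 5 dimmer positive differences, with unadjusted p between 0.2 and 0.577. Which CFLAR transcripts each probe set reads is not given in the sources used here. The remaining 6 probe sets read between 2.04 and 3.42 and were not tested. In RefSeq, CFLAR, CASP10 and CASP8 are consecutive protein-coding genes on chromosome 2. CASP10, a second initiator caspase gene, had −0.41 ± 0.16 in its brightest probe set and 0.39 ± 0.14 and 0.38 ± 0.15 in 2 dimmer ones, so these neighbours shared no direction that held over their probe sets.

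**Figure D3:**
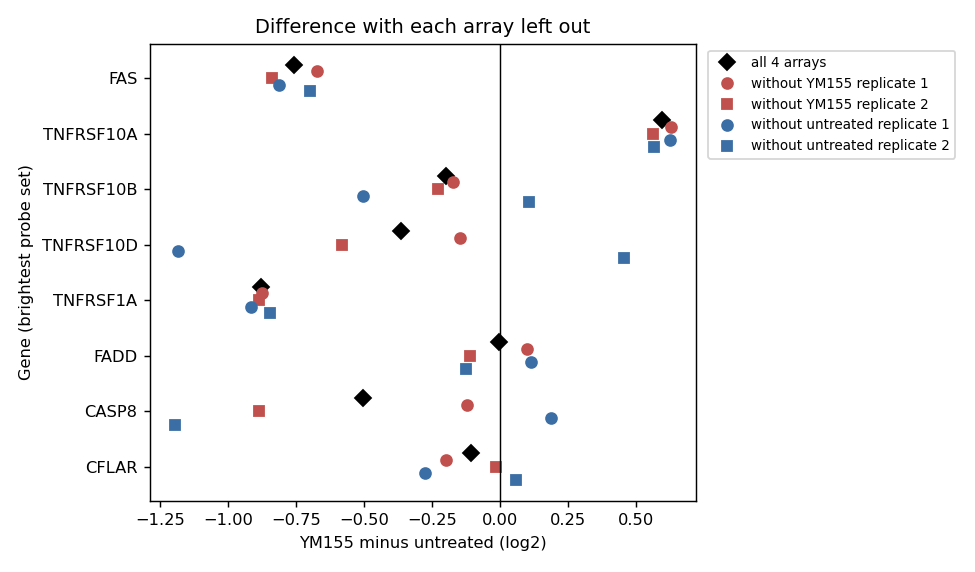
Difference between YM155 and untreated arrays (log2) of the brightest probe set of 8 genes with all 4 arrays (diamonds) and with each array left out in turn (circles and squares). TNFRSF10B, TNFRSF10D, FADD, CASP8 and CFLAR cross 0. FAS, TNFRSF1A and TNFRSF10A keep their side of it, as they must where the groups do not overlap.

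When single arrays were left out, the brightest probe sets gave −0.84 to −0.67 for FAS, −0.91 to −0.84 for TNFRSF1A and 0.56 to 0.63 for TNFRSF10A. Because the groups of these genes do not overlap, leaving out an array could change the size of the difference but not its sign. The ranges were −0.50 to 0.11 for TNFRSF10B, −1.18 to 0.46 for TNFRSF10D, −0.12 to 0.12 for FADD, −1.19 to 0.19 for CASP8 and −0.28 to 0.06 for CFLAR. For TNFRSF10D the lowest value came without untreated replicate 1 and the highest without untreated replicate 2, and for CASP8 the other way round. For 5 of the 8 genes, then, these 4 arrays do not set a direction in the brightest probe set. The 2 tested _x_at probe sets of TNFRSF10B, whose groups did not overlap either, gave −0.70 to −0.20 and −0.71 to −0.23.

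FAS and TNFRSF1A, which had the largest negative differences of the 8 receptor and signalling genes, are shown with the 250 bases before their start sites (RefSeq, GRCh38.p14), searched for sites of factors described below. The FAS window is chr10:88990548-88990797 on the + strand, the first of 3 starts listed for it, and the TNFRSF1A window is chr12:6342077-6342326 on the - strand; both are written 5′ to 3′ with motif matches in capitals.
FAS: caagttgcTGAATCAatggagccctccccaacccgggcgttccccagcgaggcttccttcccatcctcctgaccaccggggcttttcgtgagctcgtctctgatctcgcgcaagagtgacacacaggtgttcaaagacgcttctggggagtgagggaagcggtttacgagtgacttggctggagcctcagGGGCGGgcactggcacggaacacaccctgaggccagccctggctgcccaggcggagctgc
TNFRSF1A: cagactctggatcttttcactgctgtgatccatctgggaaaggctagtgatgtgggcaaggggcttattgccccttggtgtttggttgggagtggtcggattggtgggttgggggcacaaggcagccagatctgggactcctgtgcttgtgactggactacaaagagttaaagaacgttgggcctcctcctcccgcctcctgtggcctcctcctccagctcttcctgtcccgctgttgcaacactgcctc
The motifs, searched on both strands, were the GC box of SP1 (GGGCGG), the AP-1 site of JUN (TGANTCA) and a forkhead site of FOXO1 (TGTTTAC). The FAS window held 1 AP-1 match, 242 to 236 bases before the start, and 1 GC box, 60 to 55 bases before it, which do not overlap. Windows before the other 2 FAS starts held no AP-1 match. One held 2 GC boxes, 63 to 58 and 52 to 47 bases before the start. The other overlaps the first window and held that window's GC box again, 176 to 171 bases before its own start. The TNFRSF1A window held no match to any of the 3. Over 35116 promoter windows of the same length, 42.6% held the GC box, 6.57% the AP-1 site and 2.98% the forkhead site. Of the 7 receptor and signalling genes with an entry, 5 had a GC box before some start (FAS, FADD, CASP8, CFLAR and RIPK1). The AP-1 site was found for 3 (FAS, CASP8 and CFLAR) and the forkhead site for 0. The GC box and AP-1 site were thus not particular to FAS, and FADD, CASP8 and CFLAR had overlapping groups in their brightest probe sets. A match is a description of these letters and not a measured binding site.

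Transcription factors known to act on death receptor or TRAIL genes had a median absolute difference of 0.79 log2, against 0.17 over all genes. The list was chosen with earlier results of these data known, so this contrast and the counts that follow are only a description. Of 10 listed, 8 were tested, and 0 passed the adjusted threshold; at an unadjusted p under 0.05 there were 2 higher and 3 lower, where 11.8% of genes had such a p (4.92% higher and 6.90% lower). JUN, an AP-1 subunit, read 11.18 and 11.06 log2 in YM155 arrays and 9.83 and 10.21 in untreated arrays (1.10 ± 0.18, limma adjusted p = 0.255), and its other 3 probe sets gave 1.14 to 1.49. FOXO1 read 5.57 and 5.79 in YM155 arrays and 6.56 and 6.94 in untreated arrays (−1.07 ± 0.19, limma adjusted p = 0.276), with −1.62 ± 0.22 in its other probe set. DDIT3, which encodes CHOP, a stress factor that can induce TNFRSF10B, stood at −0.82 ± 0.15, and SP1 at −0.81 ± 0.27 and −0.67 ± 0.19 in its 2 tested probe sets. The first SP1 value was −0.51 without untreated replicate 2 and −1.12 without untreated replicate 1. FOXO3 (0.76 ± 0.14) went the other way from FOXO1, and the NF-kappaB genes RELA (0.13 ± 0.17) and NFKB1 (0.47 ± 0.37) overlapped between groups.

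Around the TNF receptor complex, 14 of 17 listed genes were tested and 1, TNFAIP3, had an unadjusted p under 0.05, where 11.8% of all genes had. TNFAIP3 encodes A20, a ubiquitin-editing inhibitor of NF-kappaB signalling downstream of TNFRSF1A. It read 9.66 and 9.64 log2 in YM155 arrays, against 8.72 and 8.66 in untreated arrays, which is 0.96 ± 0.13 higher (SE; limma adjusted p = 0.228), and its second probe set read 8.11 and 8.03 in YM155 arrays and 6.86 and 7.09 in untreated arrays (1.09 ± 0.15). The receptor gene TNFRSF1A thus stood lower and this inhibitor's gene higher in the same arrays. RNF31 (−0.50 ± 0.21) and RBCK1 (−0.33 ± 0.13), subunits of the linear ubiquitin ligase, and OTULIN (−0.48 ± 0.26), which removes linear ubiquitin, had negative differences in their brightest probe sets. OTULIN gave −0.14 without untreated replicate 2, and RNF31 gave −0.27 without untreated replicate 1. SHARPIN, the remaining subunit of that ligase, overlapped between groups (0.10 ± 0.19). The other probe sets of RNF31, RBCK1 and OTULIN gave −0.07 to 0.37 with groups that overlapped. Of the 14 genes, 8 had negative and 6 positive differences, where 52.9% and 47.1% of all genes had, with a median of −0.16.

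Of 10 other ligand, receptor and decoy genes, 6 were tested. TNFSF15, the ligand TL1A, read 5.71 and 5.37 log2 in YM155 arrays, against 7.59 and 6.44 in untreated arrays (−1.48 ± 0.41, limma adjusted p = 0.362), and gave −2.05 without untreated replicate 2 and −0.90 without untreated replicate 1. TNFRSF21, the death receptor DR6, read 9.86 and 9.48 in YM155 arrays, against 8.44 and 8.97 in untreated arrays (0.96 ± 0.25, limma adjusted p = 0.344), and its second probe set gave 1.12 ± 0.29. TNFRSF25, the receptor of TL1A, had a positive difference in each of its 5 tested probe sets (0.19 to 0.78), which measure the same RNA. The arrays did not overlap, and 19.4% of all probe sets lay higher in this way. The brightest TNFRSF25 probe set read 5.07 and 5.43 in YM155 arrays and 5.03 and 4.86 in untreated arrays (0.30 ± 0.18, limma adjusted p = 0.598). The dimmest read 3.55 and 3.61 in YM155 arrays and 3.25 and 3.53 in untreated arrays. In both, the gap between groups was smaller than the spread between replicates. The brightest and some of the others carry the _x_at suffix. TNFSF15 and its receptor therefore stood on opposite sides, the receptor with dim probe sets only.

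**Figure D4:**
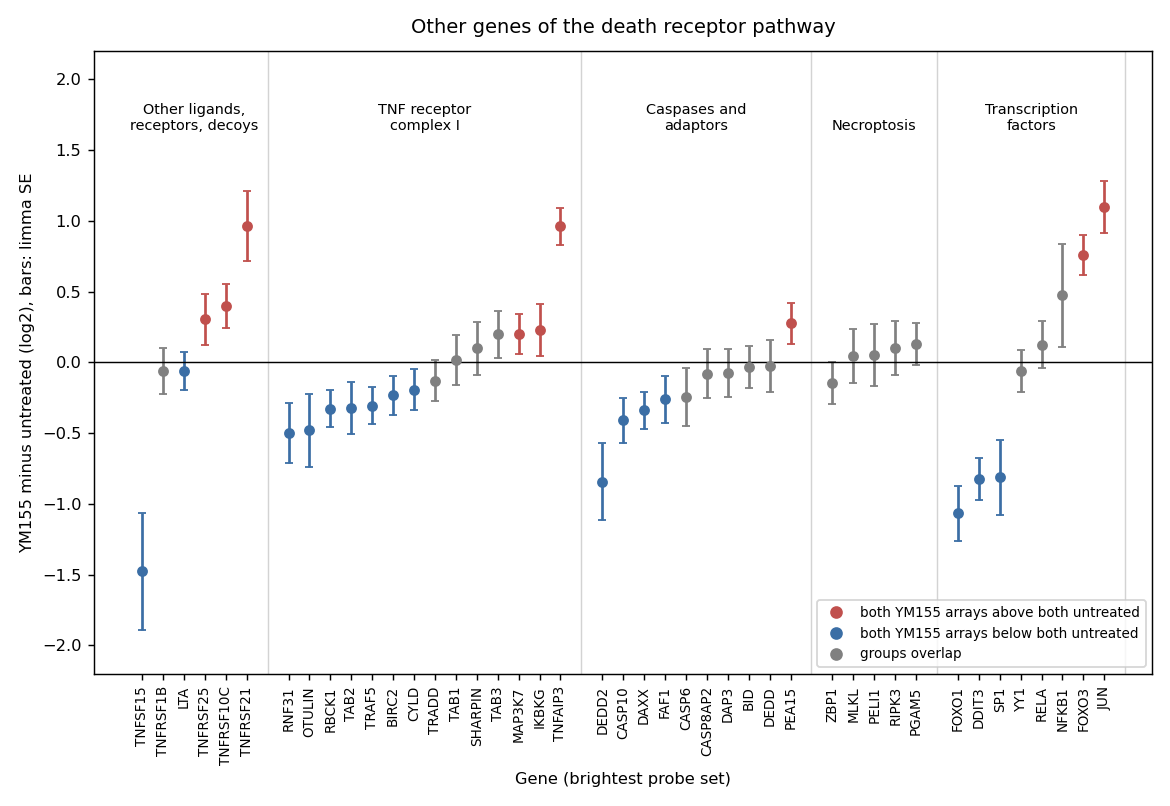
Difference between YM155 and untreated arrays (log2, points) with limma's standard error (bars) for the brightest probe set of 43 further pathway genes in 5 lists, coloured by whether the arrays of the groups overlap. JUN, TNFAIP3 and TNFRSF21 lie highest and TNFSF15 and FOXO1 lowest; the 5 necroptosis genes stay near 0.

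Of 12 caspases and adaptors that act downstream of or beside the death-inducing complex, 10 were tested, 9 with negative differences, where 52.9% of all genes had, and a median of −0.16. In 5 of the 10 the groups overlapped, while 44.9% of all genes had groups that did not. At an unadjusted p under 0.05 there was 1 of the 10, where 11.8% of all genes had such a p. Averaging the probe sets of a gene turned CASP10 to 0.12. DEDD2, a death effector domain gene, read 7.24 and 7.21 log2 in YM155 arrays, against 7.70 and 8.43 in untreated arrays (−0.84 ± 0.27, limma adjusted p = 0.402), and gave −1.21 without untreated replicate 1 and −0.48 without untreated replicate 2. DAXX, first described as a FAS-binding protein, stood at −0.34 ± 0.13, and PEA15, a death effector domain protein that binds FADD, at 0.28 ± 0.14. The second tested probe set gave −0.17 ± 0.13 for DAXX and 0.07 ± 0.24, with groups that overlapped, for PEA15. BID, the CASP8 substrate that links to mitochondria, had −0.03 ± 0.15 in the brightest probe set and 0.35 when its tested probe sets were averaged. The 5 necroptosis genes all overlapped between groups, where 44.9% of all genes did not. RIPK3 stood at 0.10 ± 0.19 and MLKL, which perforates the membrane, at 0.05 ± 0.19, and PGAM5, ZBP1 and PELI1 at 0.13 ± 0.15, −0.15 ± 0.15 and 0.05 ± 0.22. All 43 genes together had 18 positive and 25 negative differences, where 47.1% and 52.9% of all genes had, and 9 an unadjusted p under 0.05, against 11.8% of all genes.

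The 7 squamous epithelial markers analysed of 10 listed read between 7.17 and 13.2 log2 in all arrays. Their summed level was 14.7 to 14.8 log2 in YM155 arrays and 14.2 to 14.5 in untreated arrays, so it moved with the groups; its part in the differences above was not tested. Fibroblast markers (6 of 6 analysed) reached at most 6.24 and endothelial ones (5 of 5) 5.26, and summed to 6.89 to 7.08 and 6.38 in YM155 arrays, against 6.94 to 7.05 and 6.28 to 6.45 in untreated arrays. Among 5 of 6 leukocyte markers, PTPRC, the pan-leukocyte marker, lay at 2.05 to 2.18 and LCP1, an actin-bundling gene, was bright (9.41 to 10.03).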

How the data were processed

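Each array file column held 1 intensity per probe set, which the authors made with RMA (robust multi-array averaging) per the submitters' processing notes; no version or settings are named. The deposited intensity values ran from 2.42 to 15214, a linear scale, and were turned into log2. Since RMA brings arrays to a common distribution, a shift of all genes is not measured. After removal of 62 control probe sets, 54613 remained, of which 41091 had 1 gene symbol, 1801 several and 11721 none. Symbols were checked by gene ID against RefSeq (41037 matched, 0 updated). The 32768 probe sets at or above the 40th percentile of mean log2 value were tested one by one with limma 3.58.1 (R 4.3.3) by a two-sided moderated test with group as the factor, Benjamini-Hochberg adjustment over all of them and a threshold of 0.05. Counts over genes use each gene's brightest probe set in the same fit. With 2 arrays per group, the number of arrays limits the precision.

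Groups come from the titles and treatment labels. Genes, pathway lists and tests were chosen with earlier results of these data known. All probe sets of the receptor and signalling genes were named, and of each pathway list up to 4 genes of largest absolute difference; FOXO3, RELA, NFKB1, SHARPIN, BID, MLKL, FASLG and TNF were named after their values were seen. Alternatives were other filters, gene summaries, normalizations and variance models, array weights, the ACTB ratio, the replicate block and single arrays left out. Probe sets are not placed on the genome because no build is named for them; the printed promoter windows are RefSeq's own.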

Additional observations from a re-analysis of the deposited data

How the results depend on the processing

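Under 15 alternatives, limma called 0 features past the adjusted threshold of 0.05 in either direction, and 0 of the death receptor probe sets. With all arrays, 3633 of 32768 probe sets had an unadjusted p under 0.05. FAS, TNFRSF1A and TNFRSF10A kept their sign in each tested probe set and alternative. For left-out arrays this was fixed in advance, since the groups overlapped in none of these probe sets. The replicate numbers are not known to pair the arrays (the deviations of same-numbered arrays correlated at −0.03 over probe sets). The replicate block called 0 probe sets, with adjusted p of 0.568 for the brightest probe sets of these 3 genes. Of 481 values under alternatives other than a left-out array, 7 changed sign. Averaging a gene's probe sets gave 0.12 for CASP10, 0.058 for CFLAR, 0.064 for RBCK1, 0.35 for BID and −0.012 for PELI1; FADD gave 0.0066 after a second quantile normalization and 0.0043 after centring on the median. Those averages take in dimmer probe sets, which gave 0.39 and 0.38 for CASP10, 0.37 and 0.15 for RBCK1 and −0.16 and 0.07 for PELI1. For CFLAR, 5 tested probe sets had positive differences. The FADD difference was −0.0041 in the main fit. Why probe sets of 1 gene differ was not tested. Where leaving out an array turned the sign, the ranges were −0.505 to 0.105 for TNFRSF10B, −1.18 to 0.457 and, in the dim probe set, −0.309 to 0.084 for TNFRSF10D, −0.123 to 0.115 for FADD, −1.19 to 0.189 for CASP8, and −0.275 to 0.059 and −0.322 to 7.4e-05 for the first 2 CFLAR probe sets. They were −0.215 to 0.323 for PELI1, −0.114 to 0.316 for RIPK3, −0.156 to 0.247 for MLKL, −0.147 to 0.0784 for BID, −0.020 to 0.272 for RELA, −0.018 to 0.968 for NFKB1 and −0.103 to 0.303 for SHARPIN. Probe sets near the filter's limit cannot be told from background.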
